A study of Rattus norvegicus with 3 samples.

Results

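The genes of rat haemoglobin and Alas2, the red cell form of the first enzyme of haem synthesis, were measured in the basolateral amygdala (BLA). They were chosen by symbol, and the choice was made with their values in these libraries known, so the ratios between libraries given below describe the genes and carry no test. Of 9 symbols named, 7 were found, and Hbb-b1 and Hbb-bs were not matched under those symbols. The 7 symbols gave 8 rows of the 19113 genes in the table, because LOC103694855 stood on 2 rows with different Ensembl identifiers. RefSeq names LOC689064 as Hbb-bs. LOC103694855 was not matched in the RefSeq tables used here, so no chain is given to that locus here.

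BLA micropunches came from adult male Sprague-Dawley rats in 3 housing conditions, and RNA of 10 rats was pooled into 1 library per condition. Standard housing (SH) was a pair of rats per cage. Enriched rats (EE) spent their active cycle in a large cage of 10 rats with toys and the daytime alone. Enrichment removal rats (ER) had 4 weeks of the same enrichment and then lived alone without it for 2 weeks. The labels give no other treatment and no altered gene. Company, toys and cage size differed together between the conditions and cannot be told apart, and the pooling leaves no spread between rats. The rats were killed by decapitation, and no perfusion is described for this cohort. The libraries held 30334384 (SH), 29263063 (EE) and 29558555 (ER) recovered reads. Glutamatergic projection neuron markers summed to 101875 scaled counts in SH, 101173 in EE and 101452 in ER. Most of these came from Slc17a7 (57756, 57766 and 58098) and Camk2a (29420, 27862 and 28582). For EE against SH, the counting interval of the ratio lay above 1 for 3 of the 7 genes and below 1 for 2. For ER against SH it lay above 1 for 1 and below 1 for 2. Choroid plexus genes were uneven between the libraries, with 124 reads in SH, 45 in EE and 24 in ER over 4 genes. Ttr had 80, 4 and 0 of these reads, Slc4a5 22, 16 and 6, Kcnj13 7, 3 and 0, and Kl 15, 22 and 18. The part of these genes in the results below was not tested.

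Haemoglobin is a tetramer of alpha-type and beta-type globin chains, each holding a haem group that binds oxygen. The chains come from separate gene clusters on different chromosomes, and red cell precursors keep their output close to balance, since unpaired chains are harmful. Mature mammalian red cells have no nucleus, but young circulating red cells (reticulocytes) still carry globin mRNA, so brain tissue with blood in its vessels yields globin reads. Globin transcripts at low level have also been described in rodent neurons and glia. Alas2 makes the haem precursor aminolevulinic acid in red cell precursors, whereas Alas1 does this step in other cells.

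The promoters of the 6 members with a RefSeq entry (assembly GRCr8) are shown so that they can be set side by side. Their part in the ratios below was not tested. Each run is the 200 bases before the annotated start of the gene, read 5′ to 3′ on the gene's strand. Capitals mark motifs on either strand. The CCAAT box is known from globin promoters, as is the CACCC box. The letters ATAAA form the core of a TATA-like element, and the letters GATAA form the core bound by GATA factors. The last pair of motifs can overlap, and a stretch that holds both counts for both.
Hba-a1 promoter, minus strand, chr10:15842581-15842780: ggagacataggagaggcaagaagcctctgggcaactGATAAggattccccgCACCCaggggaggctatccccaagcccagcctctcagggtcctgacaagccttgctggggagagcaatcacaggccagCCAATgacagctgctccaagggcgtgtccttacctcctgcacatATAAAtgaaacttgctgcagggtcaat
Hba-a2 promoter, minus strand, chr10:15829139-15829338: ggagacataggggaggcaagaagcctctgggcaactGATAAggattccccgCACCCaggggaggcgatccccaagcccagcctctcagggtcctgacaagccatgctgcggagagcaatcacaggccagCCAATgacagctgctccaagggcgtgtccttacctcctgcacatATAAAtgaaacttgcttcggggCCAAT
Hba-a3 promoter, minus strand, chr10:15816944-15817143: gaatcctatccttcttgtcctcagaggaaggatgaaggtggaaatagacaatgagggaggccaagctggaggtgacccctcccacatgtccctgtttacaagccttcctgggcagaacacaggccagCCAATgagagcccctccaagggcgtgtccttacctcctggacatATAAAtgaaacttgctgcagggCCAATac
Hbb promoter, minus strand, chr1:167663722-167663921: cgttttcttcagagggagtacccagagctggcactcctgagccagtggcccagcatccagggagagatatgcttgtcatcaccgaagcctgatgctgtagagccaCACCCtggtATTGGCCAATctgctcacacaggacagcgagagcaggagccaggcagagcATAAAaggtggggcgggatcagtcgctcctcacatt
LOC689064 promoter, minus strand, chr1:167631631-167631830: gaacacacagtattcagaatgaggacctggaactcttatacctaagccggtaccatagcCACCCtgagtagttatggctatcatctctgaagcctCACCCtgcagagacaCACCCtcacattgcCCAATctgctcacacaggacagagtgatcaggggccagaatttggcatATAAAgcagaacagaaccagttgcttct
Alas2 promoter, plus strand, chrX:22895250-22895449: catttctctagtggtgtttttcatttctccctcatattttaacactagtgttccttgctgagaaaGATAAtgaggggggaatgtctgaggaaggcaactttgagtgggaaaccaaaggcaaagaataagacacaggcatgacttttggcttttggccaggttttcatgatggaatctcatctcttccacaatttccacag
The promoters of Hba-a1 and Hba-a2 shared 193 of 200 bases (96.5%) in a global alignment, and the first 50 transcribed bases shared 47. The Hba-a3 promoter shared 75.5% with that of Hba-a1, and its first transcribed bases shared 90.0%. Hbb and LOC689064 were less alike, at 68.0% before the start and 76.0% after it. CCAAT was present in 5 of the 6 windows, against 29.2% of 33469 RefSeq promoters cut to the same length. ATAAA was also present in 5 of 6 (32.7% of all promoters), CACCC in 4 of 6 (42.9%) and GATAA in 3 of 6 (19.0%). The Alas2 window held GATAA alone of these motifs, and the Hba-a3 window held neither GATAA nor CACCC. Because CCAAT and CACCC are known from globin promoters and the windows of the alpha-type genes are alike, nothing is read from these counts. A match of letters is a description and not a binding site.

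Among the alpha-type genes, Hba-a1 (ENSRNOG00000029886) and Hba-a2 (ENSRNOG00000047321) encode the main adult alpha chain. Hba-a1 had 1572 scaled counts in SH, 2184 in EE and 1967 in ER. A scaled count is a read count divided by the size factor of its library. The EE library was highest and the SH library lowest. Its ratio was 1.39 (exact 95% interval 1.30 to 1.48) in EEvSH, 1.25 (1.17 to 1.34) in ERvSH and 0.901 (0.847 to 0.959) in ERvEE. These intervals cover counting error only and compare libraries, not conditions, and EEvSH and ERvSH share the SH library. In bulk tissue, fewer cells of a type and less RNA per cell cannot be told apart.
Hba-a2 had 940 scaled counts in SH, 1244 in EE and 1124 in ER, which is the same order. Its ratios were 1.32 (1.21 to 1.44) in EEvSH, 1.20 (1.10 to 1.31) in ERvSH and 0.904 (0.832 to 0.982) in ERvEE. For both genes the counting interval of each contrast left out 1. How reads were assigned between Hba-a1 and Hba-a2 is not known, and its part in their split, given below, was not tested. Hba-a3 (ENSRNOG00000045989), a further alpha-type gene of the cluster, had 33 reads in SH, 46 in EE and 36 in ER. Its ratios of 1.45 (0.906 to 2.34) in EEvSH, 1.12 (0.681 to 1.86) in ERvSH and 0.776 (0.488 to 1.23) in ERvEE all had intervals that held 1, so no difference was detectable at this depth.

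The beta-type genes stood further above SH. Hbb (ENSRNOG00000058105), an adult beta chain, had 607 scaled counts in SH, 975 in EE and 898 in ER. The ratio was 1.60 (1.45 to 1.78) in EEvSH and 1.48 (1.33 to 1.64) in ERvSH. In ERvEE it was 0.921 (0.839 to 1.01), an interval that held 1, so EE and ER could not be ordered for Hbb. Of the 13386 genes whose mean scaled count reached 50, 0.344% had a higher EEvSH ratio than Hbb and 0.374% a higher ERvSH ratio. Over all member rows this share ran from 0.209% (LOC103694855, ENSRNOG00000060629) to 1.77% (Hba-a2) in EEvSH. In ERvSH it ran from 0.179% (LOC689064) to 8.69% (Hba-a3). The members were chosen with these values known, so nothing is read from these shares. LOC689064 (ENSRNOG00000054582), the other beta-type gene, had 178 scaled counts in SH, 274 in EE and 294 in ER. Here the ER library was highest, at 1.65 (1.37 to 2.00) in ERvSH against 1.54 (1.27 to 1.87) in EEvSH. The ERvEE ratio of 1.07 (0.906 to 1.27) did not separate ER from EE.

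The 2 rows of LOC103694855 were also lowest in SH. The row ENSRNOG00000047098 had 331 scaled counts in SH, 486 in EE and 506 in ER, with ratios of 1.47 (1.27 to 1.70) in EEvSH, 1.53 (1.33 to 1.76) in ERvSH and 1.04 (0.915 to 1.18) in ERvEE. The row ENSRNOG00000060629 had 119 scaled counts in SH, 201 in EE and 182 in ER. Its ratios were 1.69 (1.34 to 2.14) in EEvSH, 1.53 (1.21 to 1.95) in ERvSH and 0.905 (0.734 to 1.12) in ERvEE. Neither row separated EE from ER beyond counting error.

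Alas2 (ENSRNOG00000000167) had 29 reads in SH, 37 in EE and 34 in ER. The order of the libraries was that of Hba-a1, but its ratios of 1.32 (0.793 to 2.23) in EEvSH, 1.21 (0.714 to 2.05) in ERvSH and 0.912 (0.555 to 1.49) in ERvEE had wide intervals that held 1. Its level set against that of haemoglobin was 0.926 times (0.553 to 1.56) the SH value in EE and 0.912 times (0.538 to 1.55) in ER, and these intervals also held 1.

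**Figure D1:**
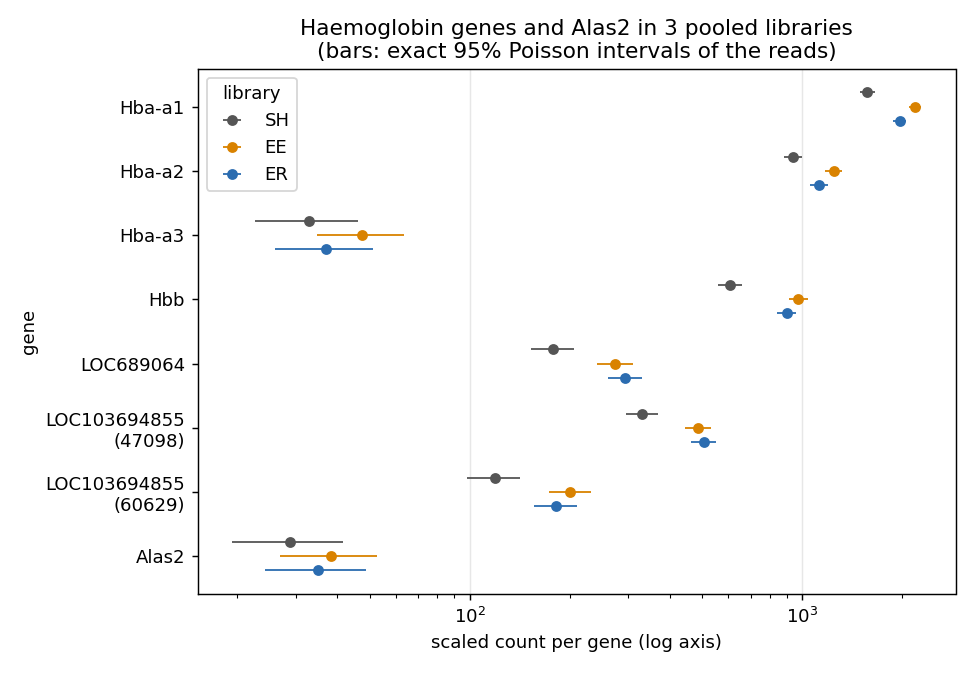
Scaled counts (horizontal log axis) of the 7 haemoglobin rows and Alas2 in the SH, EE and ER libraries, with exact 95% Poisson intervals of the reads as bars. Parentheses hold the last digits of the identifiers of the LOC103694855 rows. SH is the lowest point of every gene, from 28.9 for Alas2 to 1572 for Hba-a1.

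Summed over the 7 haemoglobin rows, the SH library had 3780 scaled counts, EE 5410 and ER 5008. These sums rest on 3796, 5233 and 4882 reads. The summed ratio was 1.43 (1.37 to 1.49) in EEvSH, 1.32 (1.27 to 1.38) in ERvSH and 0.926 (0.890 to 0.963) in ERvEE. Without Hba-a1, the row with most reads, the sums were 2208, 3227 and 3040, with ratios of 1.46, 1.38 and 0.942. The order of the libraries was the same without it.

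All 8 member rows had a ratio above 1 in EEvSH, with a median of 1.46 and a range of 1.32 to 1.69. The median log2 ratio was 0.54 with a pseudocount of 1, beside 0.00 over all 16775 genes tested. The size rule takes genes that differ by 1.5-fold or more with an interval that leaves out 1. Hbb, LOC689064 and 1 row of LOC103694855 passed it, 3 of 8 rows, where 1.19% of all genes tested passed it in the higher direction. The interval alone lay above 1 for 6 of 8 rows, against 9.27% of all genes. Because the members were chosen on these contrasts, nothing is read from these shares.

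In ERvSH all 8 rows again had a ratio above 1, with a median of 1.36, a range of 1.12 to 1.65 and a median log2 ratio of 0.44 beside 0.00 for all genes. LOC689064 and both rows of LOC103694855 passed the size rule, 3 of 8, against 0.817% of all genes in that direction. The interval lay above 1 for 6 of 8 rows, against 7.59%. In ERvEE no row passed the rule, where 0.924% of all genes passed it in the lower direction. The interval lay below 1 for Hba-a1 and Hba-a2 alone, 2 of 8 rows against 6.50%, and the median ratio was 0.908 over a range of 0.776 to 1.07.

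**Figure D2:**
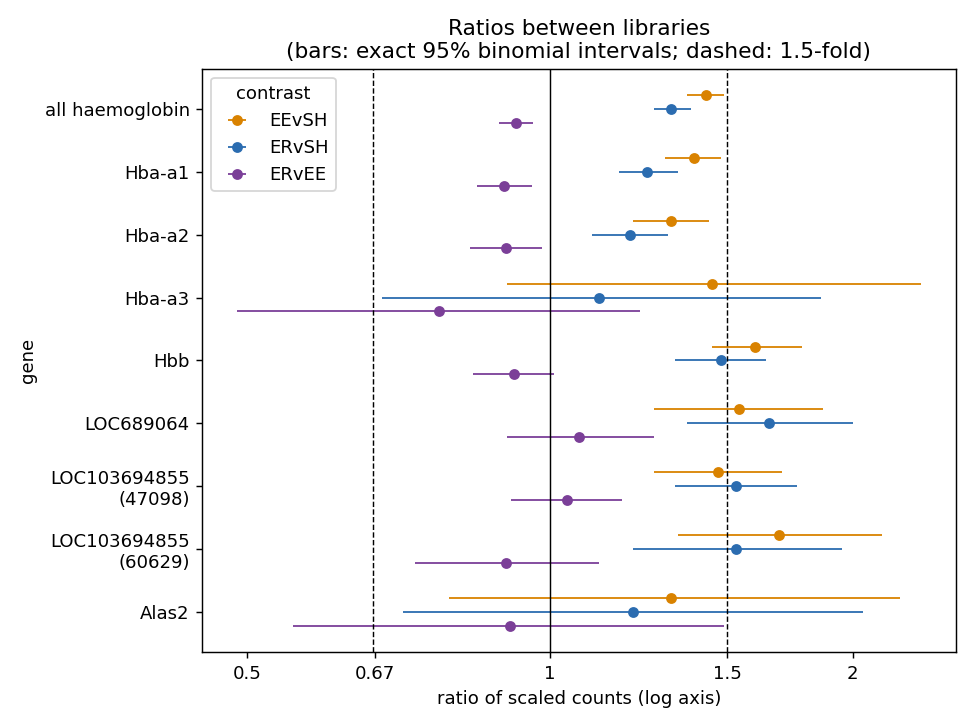
Ratios of scaled counts (horizontal log axis) in EEvSH, ERvSH and ERvEE for all haemoglobin rows summed and for each gene, with exact 95% binomial intervals as bars and 1.5-fold as dashed lines. The Hbb and LOC rows lie near or past 1.5-fold in both contrasts against SH, while Hba-a1 and Hba-a2 lie between 1.20 and 1.39.

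The make-up of the haemoglobin reads inside each library does not depend on how libraries are scaled. Hba-a1, Hba-a2 and Hba-a3 together held 76.4% (74.9 to 77.8, exact binomial) of the alpha and beta reads in SH, 73.6% (72.3 to 74.8) in EE and 72.4% (71.0 to 73.8) in ER. These are shares of reads and not of molecules, because the table gives no gene lengths. The 2 rows of LOC103694855, with 451 reads in SH, 664 in EE and 670 in ER, were given no chain and are left out of them. Placing these rows with either chain would change the shares and was not tried. The beta-type genes summed to 786 scaled counts in SH, 1249 in EE and 1192 in ER, and the alpha-type genes to 2545, 3475 and 3129. Beta over alpha was therefore 0.309 in SH, 0.359 in EE and 0.381 in ER. The ratio in EE was 1.16 times (exact conditional 95% interval 1.05 to 1.29) that in SH, and in ER it was 1.23 times (1.11 to 1.37) that in SH. Between ER and EE it was 1.06 (0.964 to 1.17), an interval that held 1.

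Hbb alone over the alpha-type genes gave 1.18 (1.05 to 1.32) in EEvSH and 1.20 (1.07 to 1.35) in ERvSH. LOC103694855 over the alpha-type genes gave 1.12 (0.981 to 1.28) and 1.24 (1.09 to 1.42). Within the alpha pair, Hba-a2 over Hba-a1 was 0.598 in SH, 0.570 in EE and 0.571 in ER, and its intervals of 0.855 to 1.06 in EEvSH and 0.855 to 1.07 in ERvSH held 1. LOC689064 over Hbb was 0.293, 0.281 and 0.328, with intervals of 0.768 to 1.20 and 0.898 to 1.39. LOC103694855 over Hbb was 0.739, 0.704 and 0.766, with intervals of 0.811 to 1.12 and 0.882 to 1.22. The 3 LOC rows took 16.6% (15.4 to 17.8) of all haemoglobin reads in SH, 17.8% (16.7 to 18.8) in EE and 19.6% (18.5 to 20.7) in ER. Globin copies can share reads, and how such reads were assigned to these rows is not known.

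**Figure D3:**
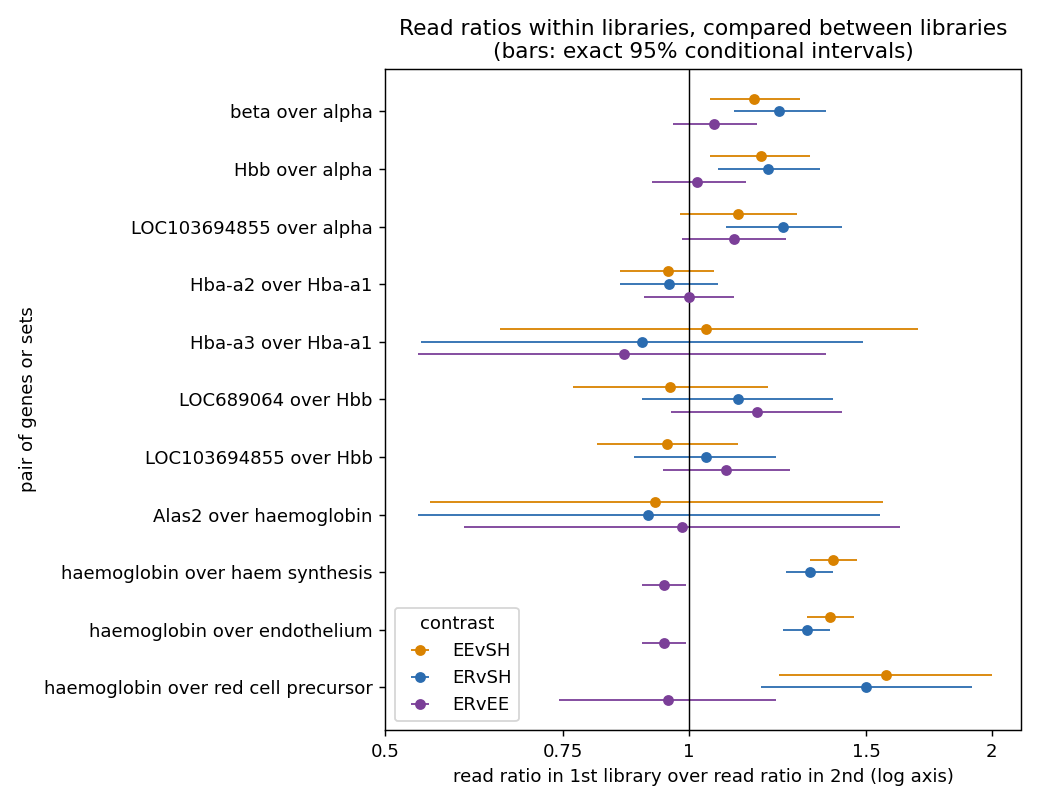
Read ratios within each library, compared between libraries (horizontal log axis, 1 meaning the same make-up), with exact 95% conditional intervals as bars. Beta over alpha lies to the right of 1 in EEvSH (1.16) and ERvSH (1.23), Hba-a2 over Hba-a1 and LOC689064 over Hbb cross 1, and haemoglobin over haem synthesis, endothelium and red cell precursor genes lies to the right of 1 in both contrasts against SH.

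Genes that red cell precursors use at high level had few reads. Of 14 symbols 8 were matched, and they summed to 154 scaled counts in SH, 141 in EE and 136 in ER. Slc4a1, the anion exchanger of the red cell membrane, had 3, 5 and 0 reads. Ahsp, the chaperone of free alpha chains, had 14, 6 and 3 reads, and its ERvSH ratio of 0.221 (0.0407 to 0.791) was the single call among the 8 genes, where 1.68% of all genes tested passed the size rule in either direction. In EEvSH the ratio of Ahsp was 0.445 (0.140 to 1.23). Klf1, the factor that drives adult beta-globin transcription, had 35.9, 43.4 and 49.2 scaled counts. Epb42 of the membrane skeleton had 58.8, 44.5 and 44.1. The list summed to 0.911 (0.718 to 1.15) in EEvSH and 0.884 (0.696 to 1.12) in ERvSH. Haemoglobin over this list was 1.57 times (1.23 to 2.00) its SH value in EE, and in ER the interval was 1.18 to 1.91. The red cell precursor genes therefore differed from haemoglobin in both contrasts. Gata1 was not matched to a symbol. Of 20 proteins that red cells share with other cells, 18 were matched, with a summed ratio of 0.988 in both EEvSH and ERvSH, and none passed the size rule.

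The other genes of haem synthesis were close to their SH levels. All 11 genes of the pathway were measured, including Alas1, and 0 of them met the size rule in EEvSH, ERvSH or ERvEE. Their sum was 7160 scaled counts in SH, 7356 in EE and 7201 in ER, or 1.03 (0.994 to 1.06) in EEvSH and 1.01 (0.973 to 1.04) in ERvSH. Alas1 had 1200, 1167 and 1191 scaled counts, with ratios of 0.973 (0.896 to 1.06) and 0.992. Fech, which inserts the iron, had 1072, 1106 and 1106. Alad, the second enzyme, had 585, 661 and 600, with an EEvSH ratio of 1.13 (1.01 to 1.27). Haemoglobin over the pathway was 1.39 (1.32 to 1.47) in EEvSH and 1.32 (1.25 to 1.39) in ERvSH. The globins of nervous tissue were near the SH level or below it. Neuroglobin, Ngb, had 340, 317 and 319 scaled counts and cytoglobin, Cygb, had 1908, 1795 and 1854, and haemoglobin over both was 1.52 (1.41 to 1.64) and 1.37 (1.27 to 1.48).

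Genes that take up and break down haemoglobin and haem differed in both directions by less than the size rule asks against SH. Of 13 rows, 0 met the size rule in EEvSH or ERvSH, and 1 did in ERvEE, where 1.70% of all genes passed it in either direction. That gene was Cd163, the haemoglobin scavenger receptor of macrophages, with 8 reads in SH, 13 in EE and 4 in ER. Hmox1, which opens the haem ring, had 146, 126 and 131 scaled counts and an EEvSH ratio of 0.862 (0.672 to 1.10). Tfrc, the transferrin receptor, had 2847, 3179 and 3087 and ratios of 1.12 (1.06 to 1.18) and 1.08 (1.03 to 1.14). Blvrb, a biliverdin reductase, had 1105, 962 and 1023 and was lower in EE at 0.870 with an interval below 1, as was the ferritin light chain Ftl1 at 0.919 (0.854 to 0.989). Over the list, the interval lay above 1 for 1 row and below 1 for 2 in EEvSH, and for 1 and 1 in ERvSH.

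Other blood cells were thinly covered and did not all share the order of the globins. Of 10 neutrophil symbols 5 were matched, at 186, 224 and 189 scaled counts, a ratio of 1.20 (0.986 to 1.47) in EEvSH and 1.01 (0.822 to 1.25) in ERvSH, and S100a8, a major granulocyte protein, had 4, 7 and 12 reads. The platelet genes, 6 of 9, summed to 66.7, 78.6 and 91.3, or 1.18 (0.837 to 1.66) and 1.37 (0.985 to 1.91), and the platelet chemokine Pf4 had 12, 9 and 17 reads. Set against haemoglobin, neither list was separated from it in EEvSH, where the interval of haemoglobin over neutrophil genes was 0.967 to 1.46 and over platelet genes 0.859 to 1.72. In ERvSH haemoglobin over neutrophil genes was 1.31 (1.06 to 1.62), while the interval over platelet genes, 0.692 to 1.35, held 1. The neutrophil sums rested mostly on Csf3r, with 148 of 187 reads in SH, 187 of 217 in EE and 150 of 184 in ER. The comparison with neutrophil genes is therefore largely a comparison with Csf3r. General leukocyte genes, which microglia also express, summed to 4388, 4389 and 4613, or 1.00 (0.959 to 1.04) and 1.05 (1.01 to 1.10), and haemoglobin over them was 1.43 (1.35 to 1.52) in EEvSH. Coro1a held 2652 of the 4406 reads in SH, 2604 of 4245 in EE and 2841 of 4497 in ER. Its ERvSH ratio was 1.10 (1.05 to 1.16), the 1 interval of the list that left out 1 in that contrast. Ptprc, the pan-leukocyte phosphatase, had 105, 100 and 117 scaled counts. Lsp1, a leukocyte actin-binding protein, had 104, 51.7 and 91.3 and passed the size rule as lower in EEvSH at 0.499 (0.349 to 0.706), where 2.13% of all genes passed in either direction. It also passed as higher in ERvEE, at 1.77 (1.24 to 2.55). Only 2 of 12 lymphocyte symbols were matched, with summed ratios of 1.43 (1.03 to 1.98) in EEvSH and 0.953 (0.664 to 1.37) in ERvSH. Haemoglobin over this list was 1.00 (0.720 to 1.39) in EEvSH and 1.39 (0.966 to 2.00) in ERvSH, and both intervals held 1. The list includes Cd3e of the T cell receptor complex, with 60.7, 84.8 and 55.4 scaled counts and an ERvEE ratio of 0.653 (0.455 to 0.932), which passed the size rule as lower where 1.70% of all genes passed in either direction.

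Summed genes of vessel cells were close to their SH levels. The 10 endothelial genes matched summed to 8129 scaled counts in SH, 8422 in EE and 8244 in ER, or 1.04 (1.00 to 1.07) in EEvSH and 1.01 (0.983 to 1.05) in ERvSH, and none passed the size rule. The 10 genes of mural cells, the pericytes and smooth muscle around vessels, gave 1.02 (0.976 to 1.06) and 1.000 (0.959 to 1.04), also with none past the rule. Haemoglobin over endothelial genes was 1.38 (1.31 to 1.46) in EEvSH and 1.31 (1.24 to 1.38) in ERvSH. Pdgfrb of pericytes had 1274, 1165 and 1329 scaled counts, and Acta2 of smooth muscle 331, 356 and 255, with an ERvSH ratio of 0.773 (0.653 to 0.913). Some vessel genes were higher than in SH with intervals above 1. In EEvSH these were the endothelial genes Esam at 1.25 (1.09 to 1.44) and Vwf at 1.15 (1.04 to 1.27) and the mural genes Rgs5 at 1.16 (1.05 to 1.28) and Abcc9 at 1.17 (1.03 to 1.34). In ERvSH these were Rgs5 at 1.13 (1.02 to 1.25) and Kcnj8 at 1.38 (1.06 to 1.79). The interval lay below 1 for Pdgfrb in EEvSH and for Acta2, Tagln and Tie1 in ERvSH. The 6 fibroblast genes summed to 750, 754 and 712. How much blood stayed in each punch was not measured, and its part in the haemoglobin ratios was not tested.

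**Figure D4:**
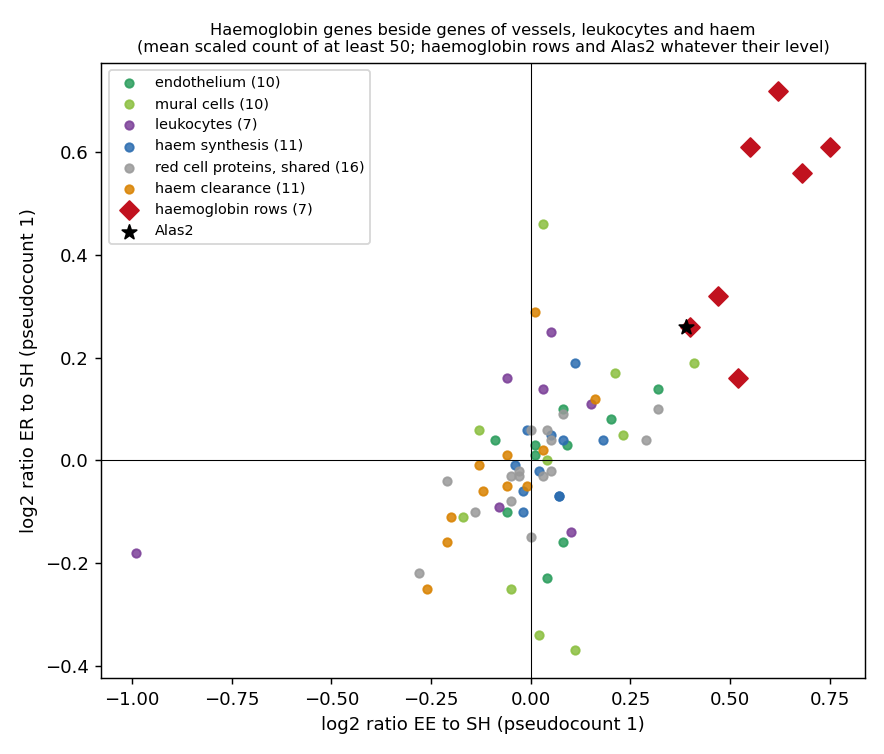
Log2 ratios of EE to SH (horizontal) and ER to SH (vertical), both with a pseudocount of 1, for the 7 haemoglobin rows, Alas2 and genes of vessels, leukocytes and haem whose mean scaled count reached 50. Both axes use the same SH library. Most listed genes lie around 0 on both axes, while every haemoglobin row and Alas2 lies above 0 on both.

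Among 12303 protein-coding genes compared, the 5 whose log2 ratios lay closest to those of summed haemoglobin, 0.52 in EEvSH and 0.41 in ERvSH, were Rpl22l1, Rims2, Wdr62, Nhs and Sema3e. The measure is the distance between the 2 pairs of log2 ratios over 3 libraries, which is a thin base for likeness. Rpl22l1, a paralogue of a ribosomal protein, had 714 scaled counts in SH, 1013 in EE and 939 in ER. Rims2, of the presynaptic active zone, had 3873, 5472 and 5125. The distances of the 5 genes were between 0.017 and 0.029, and 33 genes had both log2 ratios at or above those of haemoglobin.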

How the data were processed

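Punches of the BLA were taken from adult male rats. RNA was extracted with a column kit and then pooled, 10 rats per condition, as the paper states. Polyadenylated RNA was selected and strand-keeping libraries were made. The authors aligned reads with HISAT2 and scaled them with DESeq2, and deposited 1 normalised signal value for each gene and library, which is the read count over a size factor. Versions, build and counting were not given in the sources used here, and reads of near-identical globin copies may be split or lost. Polyadenylated selection also leaves out RNA without a tail.

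Within each library the values were whole multiples of 1 read (0.99584 in SH, 1.0339 in EE, 1.0258 in ER, within 0.001 of a read), which gave back the reads. Of 16797 protein-coding genes, the 16775 whose mean scaled count exceeded 1 were kept, and all 8 member rows passed. Ratios carry no pseudocount. Intervals are exact 95% Clopper-Pearson intervals of the recovered reads, or conditional ones for ratios of ratios. The Clopper-Pearson intervals of ratios were tried on simulated Poisson counts, which hold counting error alone, and the conditional ones were not. No molecular identifiers are described, so a read is not an independent molecule and the intervals cover counting error only. With 1 library per condition there is no p-value. Sums and lists are sums of scaled counts.

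The members, the 14 gene lists and the size rule were chosen with earlier results of these data known. Named genes were all members, listed genes that met the size rule and whose mean scaled count reached 50, genes fixed by name whatever their values, and the 5 most like summed haemoglobin. Genes named with few reads are among those fixed by name, are calls of a list or are choroid plexus genes. The calls, the choroid plexus genes and list genes named for an interval that left out 1 were chosen after their values were seen. So were Csf3r, Coro1a, Slc17a7 and Camk2a, named for their share of reads. Some genes of the lists are not reported here by name. Alternatives were other scalings, pseudocounts, thresholds and sets of genes. Python 3.11.15, pandas 2.3.3, scipy 1.17.1, Biopython 1.88, R 4.3.3 and edgeR 4.0.16 (scaling factors only) were used, with promoters from RefSeq (GRCr8).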

Additional observations from a re-analysis of the deposited data

How the results depend on the processing

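All 120 member ratios recomputed under other scalings (library totals, edgeR TMM and upper quartile) and pseudocounts (0.5 and 5) stayed inside the counting interval of the value reported, and none reversed. A 2-fold threshold in place of 1.5-fold left 0 members in EEvSH and 0 in ERvSH, against 3 and 3, which follows from ratios that reach 1.69 at most. Without the rows named by a LOC identifier the alpha share was 80.7% in SH, 78.1% in EE and 77.7% in ER, which follows from leaving a beta-type row out of the total. No paired analysis was possible because each condition has 1 library. Nothing here measures the spread between rats or between punches. Depth limits Hba-a3, Alas2 and the red cell precursor, platelet, neutrophil and lymphocyte genes, whose intervals are wide.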

Other observations

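A further locus, LOC103694857, which was not matched in the RefSeq tables used here, was singled out after its values were seen, because its identifier is close to that of LOC103694855. It had 548 scaled counts in SH, 771 in EE and 752 in ER. The ratios were 1.41 (1.26 to 1.58) in EEvSH, 1.37 (1.23 to 1.54) in ERvSH, and the ERvEE interval was 0.879 to 1.08. No chain or function is given to it here.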
